A study of Homo sapiens with 2 samples.

Results

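The genes described here are 10 epithelial genes measured in NCI-H460, an established human line of large cell lung carcinoma with lung and pleural effusion as its labelled source. They are the keratins KRT7, KRT8, KRT18 and KRT19, the claudins CLDN1, CLDN4 and CLDN7, the junction genes OCLN and TJP1, and the mucin MUC1. They were chosen by gene symbol from the 58735 genes of the count table, and each symbol matched 1 row. The siCYP4F11 library was made after transfection of a CYP4F11-directed siRNA and is labelled as a knockdown. The siControl library, labelled WT, was made after transfection without that siRNA. Both used a lipid transfection reagent and were collected at 24 h, and both carry the same batch label. The control label names no siRNA sequence. There was 1 library per group, so no difference has a replicate check, no test was possible, and each value compares these 2 libraries only. CYP4F11 is a fatty acid hydroxylase of the cytochrome P450 family, and the series asks how its depletion affects growth and movement of lung cancer lines. Epithelial genes are of interest for movement, because cells that lose epithelial junctions often move more freely.

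Keratins build the intermediate filaments of epithelial cells. Each filament pairs a type II keratin, such as KRT8 or KRT7, with a type I keratin, such as KRT18 or KRT19, and the simple epithelia that line airways and glands are known for these 4. Claudins and occludin are membrane proteins that seal neighbouring cells at the tight junction, and TJP1 (also called ZO-1) is the scaffold that anchors them to actin. MUC1 is a heavily glycosylated mucin that spans the apical membrane and is cleaved and shed.

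The promoter windows of 3 of the genes are shown because MUC1 lay furthest below the control of the 10, while CLDN4 and CLDN1 were the 2 whose counting intervals lay wholly above it. They are RefSeq windows of GRCh38.p14 from 250 bases before to 50 bases after an annotated start, read 5′ to 3′ on the strand of the gene. The MUC1 window is chr1:155192866-155193165 on the minus strand, and it is the first of 2 overlapping entries. The CLDN4 window is chr7:73830746-73831045 on the plus strand, and the CLDN1 window is chr3:190322397-190322696 on the minus strand. Capitals mark matches on either strand to the TATA box letters TATAAA, the GC box letters GGGCGG, the E-box letters CACCTG, to which SNAI and ZEB repressors bind, the AP-1 letters TGANTCA, and CCAAT.
MUC1: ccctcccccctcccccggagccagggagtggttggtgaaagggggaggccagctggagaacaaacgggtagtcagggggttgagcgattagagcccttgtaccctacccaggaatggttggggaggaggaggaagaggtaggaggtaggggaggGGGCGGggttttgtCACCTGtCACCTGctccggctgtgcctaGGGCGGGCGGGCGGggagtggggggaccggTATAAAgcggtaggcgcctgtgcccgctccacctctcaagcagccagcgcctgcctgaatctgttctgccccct
CLDN4: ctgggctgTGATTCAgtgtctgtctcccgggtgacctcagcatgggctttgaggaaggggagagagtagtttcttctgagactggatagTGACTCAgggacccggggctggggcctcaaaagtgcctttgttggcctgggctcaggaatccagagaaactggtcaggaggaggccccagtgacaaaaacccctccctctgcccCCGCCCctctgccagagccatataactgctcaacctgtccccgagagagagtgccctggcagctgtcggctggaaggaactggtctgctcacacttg
CLDN1: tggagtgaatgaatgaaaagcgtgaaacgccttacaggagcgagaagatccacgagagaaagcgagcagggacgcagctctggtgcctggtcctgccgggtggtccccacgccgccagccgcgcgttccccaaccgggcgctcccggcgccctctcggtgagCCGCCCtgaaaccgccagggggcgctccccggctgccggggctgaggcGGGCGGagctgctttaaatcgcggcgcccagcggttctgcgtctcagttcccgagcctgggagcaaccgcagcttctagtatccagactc
The MUC1 window held 1 TATA box match, 4 GC box matches, some of which overlap each other, and 2 E-box matches. The CLDN4 window held 2 AP-1 matches and 1 GC box match, and the CLDN1 window 2 GC box matches, and both held 0 E-box matches. E-box matches were also in windows not shown, with 0 and 5 in the CLDN7 windows and 1 and 2 in the OCLN windows. The first TJP1 window held 1, and the other TJP1 windows and the KRT8 window held 0. Of 35116 RefSeq windows of this length, 4049 (11.5%) held the TATA box letters, 15786 the GC box letters, 7231 (20.6%) the E-box letters, 2707 (7.71%) the AP-1 letters and 12155 (34.6%) CCAAT. Of the 10 genes, 7 had an entry, and KRT7, KRT18 and KRT19 had none. These matches describe letters in a window and are not evidence of binding.

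The libraries held 13002179 counts (siCYP4F11) and 16207785 counts (siControl). CYP4F11, the siRNA target, had 972 counts in siCYP4F11 and 3180 in siControl, which was 74.5 CPM (TMM-scaled counts per library, per megacount of library) against 197 CPM, or 37.8% of the control. Genes with a mean of at least 1 CPM, called measured genes here, numbered 13942, and all 10 epithelial genes were among them. A log2 ratio is siCYP4F11 over siControl, and the range in brackets after it is its 95% counting interval, which covers counting error only. Of the measured genes, 0.703% were at least 2-fold higher with an interval above 0 and 1.26% at least 2-fold lower with an interval below 0. In all, 1.96% passed in either direction. Of the 10 genes, 0 were higher and 0 were lower by this rule. At 1.5-fold the measured genes gave 2.04% higher, 3.44% lower and 5.47% in either direction, and of the 10 genes 0 were higher and 1, MUC1, was lower. Without a rule on size, 18.6% of measured genes had an interval wholly above 0 and 19.2% wholly below, so an interval that excludes 0 is common in these libraries. Of the 10 genes, 2 had it above 0, 5 below and 3 across 0. These shares are not matched for level, and genes with more counts have narrower intervals. The 5 below include KRT8, KRT18, KRT19 and TJP1, each with a higher mean CPM than at least 91.5% of measured genes. The median log2 ratio of the 10 was -0.08, beside -0.0055 over all measured genes.

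The epithelial label was met in part. KRT8, KRT18 and KRT19 were among the most abundant transcripts of the cells, with KRT19 ranked 49 and KRT8 ranked 84 of all genes by mean CPM. In contrast, the adhesion gene EPCAM had 8 counts in siCYP4F11 and 6 in siControl. CDH1, which encodes E-cadherin, had 0 counts in siCYP4F11 and 1 in siControl, both under the floor of 3 counts (0.230 CPM in siCYP4F11 and 0.186 CPM in siControl). Some mesenchymal genes were present beside the keratins. The intermediate filament gene VIM had 6710 counts in siCYP4F11 and 8168 in siControl, and the matrix gene FN1 had 59241 in siCYP4F11 and 89806 in siControl. Of 6 mesenchymal genes listed, 5 were measured, with a summed 5175 CPM in siCYP4F11 and 6197 CPM in siControl. FN1 alone held 4538 CPM of this sum in siCYP4F11 and 5563 CPM in siControl. The cadherin gene CDH2 was not measured, with 10 counts in siCYP4F11 and 18 in siControl. SNAI2 had 112 counts in siCYP4F11 and 116 in siControl, a log2 ratio of 0.26 (-0.13 to 0.64). For FN1 the log2 ratio was -0.29 (-0.31 to -0.28), and for VIM 0.02 (-0.02 to 0.07). ZEB1, a repressor of epithelial genes, was at -0.34 (-0.59 to -0.08), and its relative ZEB2 at -0.03 (-0.14 to 0.08). The part of this list in the results for the 10 genes was not tested.

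Markers of other lineages were mostly at or near 0. Of 5 lung adenocarcinoma markers, 0 were measured, with a summed 1.15 CPM in siCYP4F11 and 0.496 CPM in siControl, and the lung factor NKX2-1 had 0 counts in siCYP4F11 and 1 in siControl. Of 5 squamous markers 0 were measured, with 0.306 CPM in siCYP4F11 and 0.0619 CPM in siControl, and KRT6A, KRT14 and DSG3 had no reads in either. Of 4 endothelial markers 0 were measured, with 0.460 CPM in siCYP4F11 and 0.0619 CPM in siControl, and PECAM1, CDH5 and VWF had no reads. Of 5 leukocyte markers 1 was measured, with a summed 2.53 CPM in siCYP4F11 and 1.36 CPM in siControl, and PTPRC and CD3E had no reads. That marker was CD14, with 33 counts in siCYP4F11 and 20 in siControl, a log2 ratio of 1.01 (0.18 to 1.91). Of 4 mesothelial markers 1 was measured, with 1.84 CPM in siCYP4F11 and 1.86 CPM in siControl. Neuroendocrine markers had 3 of 5 measured, with 168 CPM in siCYP4F11 and 174 CPM in siControl. Fibroblast markers had 5 of 6 measured, with 87.2 CPM in siCYP4F11 and 77.9 CPM in siControl, and COL1A2 had 0 counts in siCYP4F11 and 4 in siControl. All 5 measured fibroblast markers lay above 0, with a median log2 ratio of 0.26. The intervals of 2 of them excluded 0, both matrix proteoglycan genes, DCN at 0.77 (0.008 to 1.56) and LUM at 0.59 (0.32 to 0.86). Of all measured genes, 18.6% had an interval wholly above 0. Among genes at the level of DCN 15.4% had a ratio as large, and at the level of LUM 3.43%. The most abundant of the list, COL3A1, was at 0.02 (-0.12 to 0.16). The part of these lists in the results was not tested.

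Per kilobase of gene model the 10 genes covered a wide range. KRT19 had 611 CPM per kb in siCYP4F11 and 748 in siControl, KRT8 had 151 in siCYP4F11 and 185 in siControl, and KRT18 had 136 in siCYP4F11 and 144 in siControl. CLDN1 followed with 53.3 CPM per kb in siCYP4F11 and 50.01 in siControl, then TJP1 with 13.3 in siCYP4F11 and 14.5 in siControl, and KRT7 with 6.03 in siCYP4F11 and 6.36 in siControl. CLDN4 had 3.24 CPM per kb in siCYP4F11 and 2.57 in siControl, and OCLN had 1.21 in siCYP4F11 and 1.20 in siControl. This order was the same in both libraries, and down to OCLN the exact Poisson intervals of neighbours did not overlap within a library. The last 2 places were exchanged. In siCYP4F11, CLDN7 had 0.615 CPM per kb (0.376 to 0.949) and MUC1 0.503 (0.342 to 0.715), with overlapping intervals. In siControl, MUC1 had 1.01 CPM per kb (0.798 to 1.26), which overlapped OCLN at 1.20 (1.004 to 1.42), and CLDN7 had 0.423 (0.246 to 0.677). The place of MUC1 depends on the length used. Its gene model is 4717 bases and its principal transcript in the annotation 859. Per kilobase of that transcript MUC1 had 2.76 CPM in siCYP4F11 and 5.55 in siControl. This was above OCLN on the same scale, with 1.27 in siCYP4F11 and 1.26 in siControl. CLDN4 on this scale had 3.66 in siCYP4F11 and 2.90 in siControl, so MUC1 was below it in siCYP4F11 and above it in siControl.

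**Figure D1:**
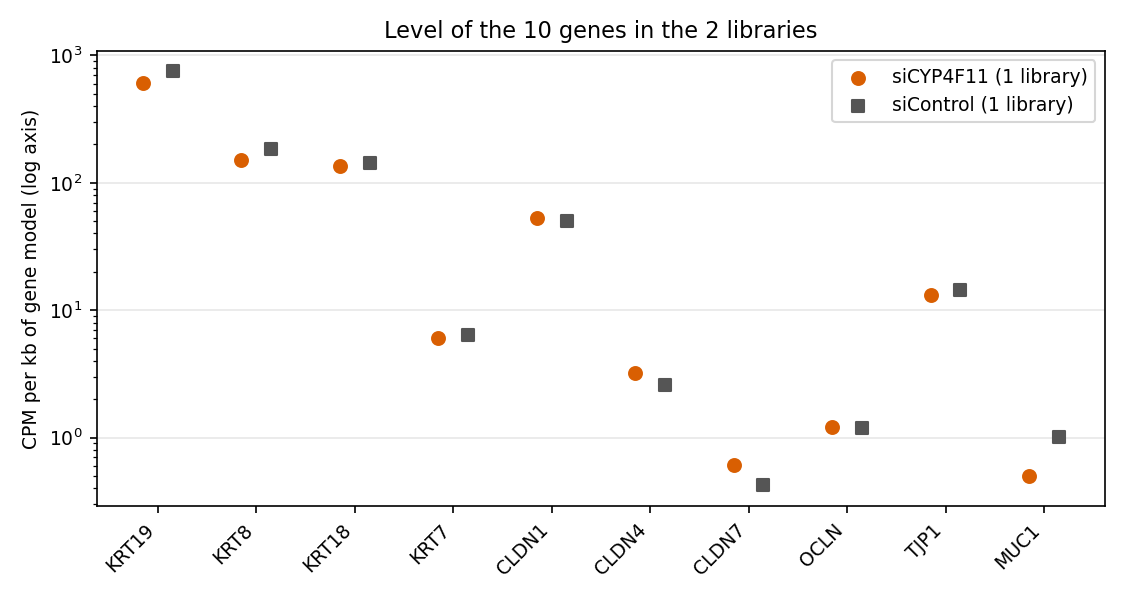
Level of the 10 genes in CPM per kb of gene model on a log axis, with 1 point per library (siCYP4F11 orange circles, siControl grey squares). KRT19 was highest at 611 in siCYP4F11 and 748 in siControl, and the largest gap between the libraries was at MUC1, with 0.503 in siCYP4F11 and 1.01 in siControl.

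KRT19 and KRT8, the 2 most abundant keratins, were both about 18% lower in the siCYP4F11 library. The point values of KRT18 and KRT7 were within 6% of the control, but the KRT7 counting interval ran from 81.7% to 109.9% of it. Gene positions are those of GRCh38 in the deposited table, which match GENCODE 29. KRT19 (ENSG00000171345) is the smallest type I keratin and lacks most of the tail domain of its relatives. Its gene is on chromosome 17, minus strand, at 41523617 to 41528308. It had 18627 counts in siCYP4F11 and 28189 in siControl, which is 1427 CPM against 1746 CPM. The log2 ratio was -0.29 (-0.32 to -0.26), 18.3% lower. Of 68 measured genes within 1.5 times of its mean CPM, 10.3% had a log2 ratio at least as large in size.

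KRT8 (ENSG00000170421) is the main type II keratin of simple epithelia, and its gene is on chromosome 12, minus strand, at 52897187 to 52949954. It had 13557 counts in siCYP4F11 and 20578 in siControl, which is 1038 CPM against 1275 CPM. The log2 ratio was -0.30 (-0.33 to -0.26), 18.5% lower. Of 111 measured genes at a similar level, 6.31% had a log2 ratio as large in size. For both KRT8 and KRT19 the difference was outside counting error, and some genes of like abundance differed as much.

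KRT18 (ENSG00000111057), the type I partner of KRT8, is next to it on the plus strand at 52948871 to 52952901. It had 5696 counts in siCYP4F11 and 7459 in siControl, which is 436 CPM against 462 CPM. The log2 ratio was -0.08 (-0.13 to -0.03), and 65.4% of 321 genes at a similar level had one as large. KRT7 (ENSG00000135480), a type II keratin common in lung and other glandular epithelia, is on the plus strand of the same chromosome at 52232520 to 52252186. It had 322 counts in siCYP4F11 and 420 in siControl, which is 24.7 CPM against 26.0 CPM, with a log2 ratio of -0.08 (-0.29 to 0.14). Of 2788 genes at a similar level, 74.2% had a ratio as large.

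Comparisons between genes within a library do not depend on library scaling. Of 10 pairs within the keratins, the claudins and the pair OCLN and TJP1, 4 had a counting interval of the log2 difference that excluded 0. All 4 were pairs of keratins. Larger counts give narrower intervals, and KRT8, KRT18 and KRT19 each had at least 5696 counts per library, but CLDN7 only 20 and 17. No share over other gene pairs was computed, and of single measured genes 37.8% had an interval that excluded 0. The ratio of KRT8 to KRT18 per kilobase of gene model was 1.11 in siCYP4F11 and 1.29 in siControl, a log2 difference of -0.21 (-0.27 to -0.15). With principal transcript lengths, the ratio was 1.75 in siCYP4F11 and 2.03 in siControl. KRT18 was likewise higher relative to KRT19 in siCYP4F11, by 0.21 (0.15 to 0.27) on the log2 scale. KRT8 and KRT19 kept nearly the same ratio, with a log2 difference of -0.004 (-0.05 to 0.04). The 2 intervals for KRT7 against KRT8 (0.22, 0.007 to 0.43) and KRT7 against KRT19 (0.21, 0.003 to 0.43) only just excluded 0.

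As shares of the summed counts of the 4 keratins, KRT19 held 48.8% (48.3 to 49.3) in siCYP4F11 and 49.8% (49.4 to 50.2) in siControl. KRT8 held 35.5% (35.01 to 35.97) in siCYP4F11 and 36.3% (35.9 to 36.7) in siControl. KRT18 held 14.9% (14.6 to 15.3) in siCYP4F11 and 13.2% (12.9 to 13.4) in siControl, with exact Clopper-Pearson intervals. KRT18 thus took a larger share of keratin counts in the siCYP4F11 library by 1.74 percentage points. Summed, the 4 keratins had 2926 CPM in siCYP4F11 and 3509 CPM in siControl, a log2 ratio of -0.26 (-0.28 to -0.24) that rests mainly on KRT19 and KRT8.

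Keratin counts can hold reads of other genes. KRT8 and KRT18 overlap by 525 exonic bases on opposite strands, and the strand setting of the counting is unknown. Of the 50-base words of their transcripts, KRT8 shares 16.1% and KRT18 24.5% with transcripts of other genes. Each has many processed pseudogenes, which are reinserted copies of the mRNA. The 50 KRT8 pseudogenes together had 176 counts in siCYP4F11 and 173 in siControl, which is 1.30% of the KRT8 counts in siCYP4F11 and 0.841% in siControl. The 67 KRT18 pseudogenes had 12 counts in siCYP4F11 and 28 in siControl. The most counted, KRT8P12 on chromosome 3, had 77 counts in siCYP4F11 and 56 in siControl, a log2 ratio of 0.76 (0.25 to 1.29), on the other side of 0 from KRT8. Of the 50-base words of KRT8P12, 0.200% occur in a KRT8 transcript. KRT7 overlaps the antisense gene KRT7-AS by 282 exonic bases, and KRT7-AS had 4 counts in siCYP4F11 and 19 in siControl, a log2 ratio of -1.81 (-3.96 to -0.35) at a mean of 0.742 CPM, under the filter.

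**Figure D2:**
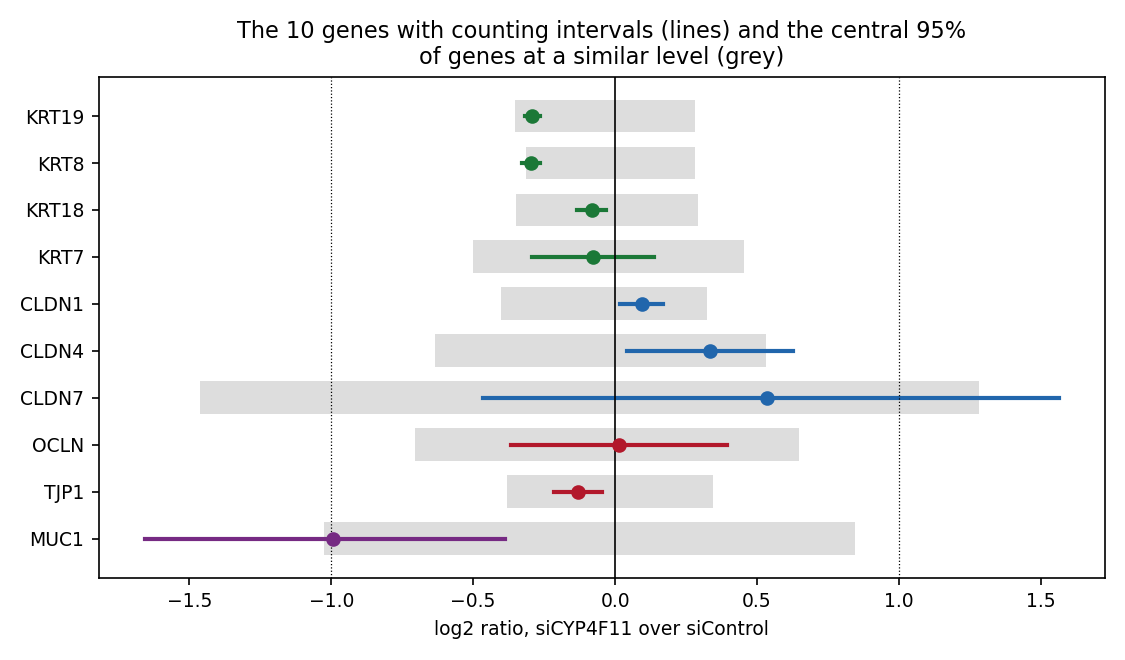
The log2 ratio of siCYP4F11 over siControl for the 10 genes (points), with the 95% counting interval (coloured lines) and the central 95% of measured genes within 1.5 times of the same mean CPM (grey bars); dotted lines mark 2-fold. KRT19 and KRT8 sit near the lower end of their grey bars at -0.29 and -0.30, MUC1 near the lower end of its own at -0.99, and the claudins lie above 0.

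All 3 claudins were higher in the siCYP4F11 library as point values, and the interval excluded 0 for CLDN1 and CLDN4. After correction for GC content, given with the other genes' values, CLDN4 stayed above 0 and the CLDN1 interval took in 0 (-0.06 to 0.10). CLDN1 (ENSG00000163347) is a barrier-forming claudin on chromosome 3, minus strand, at 190305701 to 190322475. It had 2551 counts in siCYP4F11 and 2957 in siControl, which is 195 CPM against 183 CPM, with a log2 ratio of 0.09 (0.02 to 0.17). Of 1016 genes at a similar level, 58.3% had a ratio as large. CLDN4 (ENSG00000189143), a claudin that limits sodium passage in many epithelia, is on chromosome 7, plus strand, at 73799542 to 73832693. It had 199 counts in siCYP4F11 and 195 in siControl, which is 15.2 CPM against 12.1 CPM. The log2 ratio was 0.34 (0.04 to 0.63), and 23.7% of 2176 genes at a similar level had one as large.

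CLDN7 (ENSG00000181885) was barely expressed, with 20 counts in siCYP4F11 and 17 in siControl, and its direction is not settled. This claudin is on chromosome 17, minus strand, at 7259903 to 7263983. Its level was 1.53 CPM in siCYP4F11 and 1.05 CPM in siControl, with a log2 ratio of 0.53 (-0.47 to 1.56), and 41.3% of 1316 genes at a similar level had one as large. Its exons overlap ELP5 on the other strand by 38 bases, and ELP5 had 705 counts in siCYP4F11 and 695 in siControl, a log2 ratio of 0.33 (0.17 to 0.48). CLDN7 shares 8.25% of its 50-base words with AC003688.1, which overlaps its exons by 269 bases on the same strand and had no assigned counts. How reads that match both genes were counted is not known, so this does not show whether CLDN7 counts were affected. Of the claudin counts, CLDN1 held 92.1% (91.0 to 93.1) in siCYP4F11 and 93.3% (92.4 to 94.2) in siControl. None of the 3 claudin pairs differed between the libraries beyond counting error, for example CLDN1 to CLDN4 with a log2 difference of -0.24 (-0.54 to 0.05).

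OCLN and TJP1 were close to the control. OCLN (ENSG00000197822), on chromosome 5, plus strand, at 69492292 to 69558104, encodes occludin. It had 107 counts in siCYP4F11 and 131 in siControl, which is 8.20 CPM against 8.12 CPM, with a log2 ratio of 0.02 (-0.37 to 0.39). Of 1680 genes at a similar level, 96.3% had a ratio as large. OCLN shares 8.80% of its 50-base words with other genes, chiefly its pseudogene OCLNP1, which had no assigned counts. TJP1 (ENSG00000104067), on chromosome 15, minus strand, at 29699367 to 29968865, had 1952 counts in siCYP4F11 and 2640 in siControl, which is 150 CPM against 164 CPM. Its log2 ratio was -0.13 (-0.21 to -0.04), and 46.0% of 1260 genes at a similar level had one as large. Summed over CLDN1, CLDN4, CLDN7, OCLN and TJP1, the tight junction genes had 369.9 CPM in siCYP4F11 and 368 CPM in siControl, a log2 ratio of 0.008 (-0.05 to 0.06). This sum rests mainly on CLDN1 and TJP1, which lay on opposite sides of 0, at 0.09 and -0.13.

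MUC1 (ENSG00000185499) had the lowest log2 ratio of the 10 genes and one of the lowest levels. It is on chromosome 1, minus strand, at 155185824 to 155192916. It had 31 counts in siCYP4F11 and 77 in siControl, which is 2.37 CPM against 4.77 CPM. The log2 ratio was -0.99 (-1.66 to -0.39), so the siCYP4F11 library held 50.3% of the control level (31.7% to 76.4%). Of 1461 genes at a similar level, 3.70% had a log2 ratio as large in size and 2.81% one as low. MUC1 passed 1.5-fold and lay just short of 2-fold. None of its 50-base words occurs in a transcript of another gene. Its exons overlap AL713999.1 on the same strand by 48 bases, which is shorter than such a word. AL713999.1 had no assigned counts, and how reads that match both genes were counted is not known. The longest MUC1 transcript is 71.2% GC, higher than in 99.8% of measured genes.

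**Figure D3:**
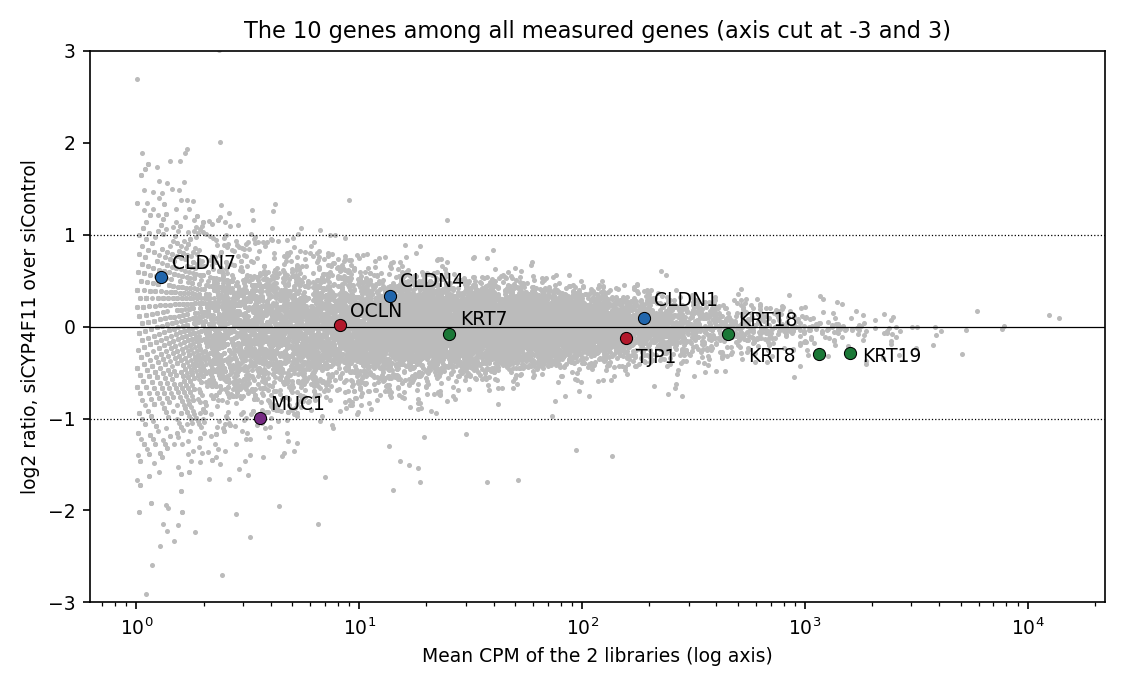
The log2 ratio of siCYP4F11 over siControl against mean CPM (log axis) for measured genes in grey and the 10 genes in colour, with dotted lines at 2-fold. MUC1, at 3.57 mean CPM, lies at the lower dotted line where the grey cloud is wide, and KRT8 and KRT19, at 1157 and 1587 mean CPM, lie at the lower edge where it is narrow.

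In these libraries, log2 ratios were lower for GC-rich genes. Spearman's rho was -0.42 over 9590 genes with a mean of at least 10 CPM, which share both libraries and are not independent. The smoothed log2 ratio of measured genes at the GC content of each of the 10 is therefore given beside it. At 61.8% GC, as in KRT19, it was -0.13, and at 56.2%, as in KRT8, -0.09. Taking these off left KRT19 at -0.17 and KRT8 at -0.21. KRT18 came to 0.0007 (-0.05 to 0.05), so its interval too then took in 0, and KRT7 came to 0.06. MUC1, where it was -0.15, came to -0.84. CLDN4 came to 0.43, CLDN7 to 0.65, CLDN1 to 0.02 (-0.06 to 0.10), OCLN to -0.08 and TJP1 to -0.16. KRT7, KRT18 and OCLN thus changed their side of 0 and the other 7 did not, and the part of GC content in the differences that remain was not tested.

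**Figure D4:**
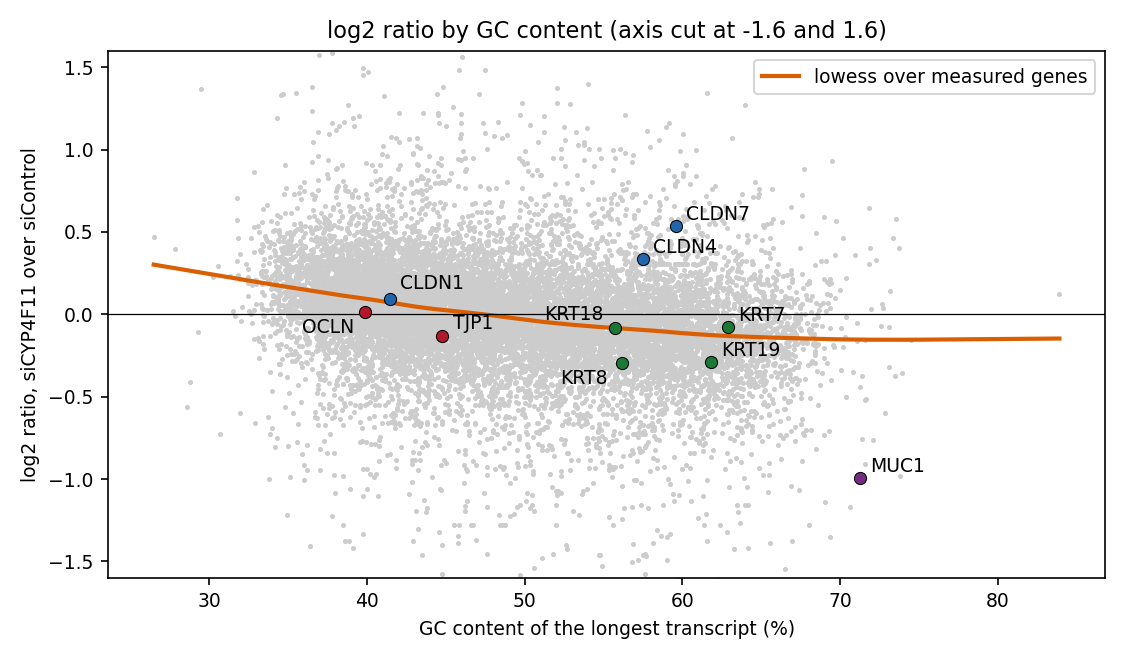
The log2 ratio of siCYP4F11 over siControl against GC content of the longest transcript in percent, with measured genes in grey, the 10 genes in colour and the smoothed trend as an orange line. KRT18 and KRT7 lie close to the line, KRT8, KRT19 and MUC1 below it, and CLDN4 and CLDN7 above it.

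Most other keratins, claudins and mucins were under the filter. Of 51 other keratin genes, 40 had no reads in either library and 6 were measured, of which 0 had an interval above 0 and 1 below. That gene was KRT10, a type I keratin best known from skin, with 767 counts in siCYP4F11 and 1111 in siControl, at -0.23 (-0.36 to -0.09). Among genes at the level of KRT10, 25.1% had a ratio as large. The highest of the 6, KRT80, was named after its values were seen, and had 1790 counts in siCYP4F11 and 2169 in siControl, at 0.03 (-0.06 to 0.12). Of 21 other claudins 9 had no reads in either library and 5 were measured, and the interval of each of the 5 included 0. The highest, CLDN12, was named after its values were seen. It had 445 counts in siCYP4F11 and 508 in siControl, at 0.12 (-0.07 to 0.30). CLDN18, a claudin of stomach and lung named after its values were seen, had 0 counts in siCYP4F11 and 12 in siControl. It lay under the filter. Its siControl level was 3.23 times the floor of 3 counts in the siCYP4F11 library, which leaves out the counting error of the 12 counts. The counting interval of its log2 ratio had an upper end of -1.17, a smaller difference than 3.23-fold. Of 16 other mucins 7 had no reads in either library and 0 were measured, with a summed 1.23 CPM in siCYP4F11 and 2.48 CPM in siControl. MUC1 was therefore the only mucin of the 17 that passed the filter.

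Partners at the tight junction were mixed, with a median log2 ratio of 0.002 over 25 measured of 33. Of these, 5 had an interval above 0 and 3 below, beside 18.6% and 19.2% of all measured genes, and at 1.5-fold 2 were higher and 1 lower, beside the 2.04% and 3.44% of all measured genes. PRKCZ, an atypical protein kinase C of the polarity complex, had 81 counts in siCYP4F11 and 57 in siControl, at 0.81 (0.31 to 1.33). PARD6A, an adaptor of the same complex, had 119 in siCYP4F11 and 93 in siControl, at 0.66 (0.26 to 1.07). SYMPK, a scaffold of mRNA 3′ end processing also found at junctions, had 1019 in siCYP4F11 and 1912 in siControl, at -0.60 (-0.71 to -0.49). Of genes at its level, 0.379% had a ratio as large, beside 5.34% at the level of PRKCZ and 6.77% at the level of PARD6A. PARD3, the scaffold of the polarity complex, was at -0.38 (-0.51 to -0.25), with 5.24% of genes at its level as large.

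The genes that tie keratin filaments to junctions had a median of -0.08 over 11 measured of 14, with 2 intervals above 0 and 5 below, beside 18.6% and 19.2% of all measured genes. At 1.5-fold, 1 was higher and 0 lower, beside 2.04% and 3.44%. PLEC, which encodes the linker plectin, had 3855 counts in siCYP4F11 and 6691 in siControl, at -0.49 (-0.55 to -0.43), and 1.62% of genes at its level had a ratio as large. DST, a linker of the same family, was at -0.28 (-0.33 to -0.24), with 7.56% of genes at its level as large. DSC2, a desmosomal cadherin, had 643 counts in siCYP4F11 and 515 in siControl, at 0.63 (0.46 to 0.80), with 0.587% of genes at its level as large. PKP2, a desmosomal plaque protein, was at 0.28 (0.06 to 0.49), with 24.5% of genes at its level as large. Desmoplakin (DSP), the protein that usually joins keratins to desmosomes, was named after its values were seen and had 2 counts in siCYP4F11 and 4 in siControl.

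Regulators of the epithelial state were measured in part. Of 12 epithelial transcription and splicing factors 3 were measured, with a median of 0.13, and the interval of each included 0. These 3 were named after their values were seen. KLF4 had 2010 counts in siCYP4F11 and 2561 in siControl. KLF5 had 633 in siCYP4F11 and 715 in siControl, and GRHL3 had 35 in siCYP4F11 and 39 in siControl. GRHL2, ELF3, ELF5 and OVOL1, named after their values were seen, had no reads in either library. Enzymes that build mucin-type O-glycans, the sugar chains carried by MUC1, had a median of 0.06 over 14 measured of 16. Of these, 3 had intervals above 0 and 2 below, near the 18.6% and 19.2% of all measured genes. The initiating enzymes GALNT3, GALNT7 and GALNT1 were at 0.82 (0.15 to 1.53), 0.31 (0.18 to 0.45) and 0.28 (0.17 to 0.39). ST3GAL1, which caps such chains with sialic acid, was at -0.15 (-0.20 to -0.10). The shares of genes at a similar level with a ratio as large were 10.3% for GALNT3, 11.7% for GALNT7, 14.4% for GALNT1 and 38.9% for ST3GAL1. Of 10 partners and sheddases of MUC1, 8 were measured, with a median of -0.02, and 2 had intervals above 0 and 3 below, beside the same 18.6% and 19.2%. LGALS3, whose lectin binds MUC1, had 14664 counts in siCYP4F11 and 22681 in siControl, at -0.32 (-0.35 to -0.29). ADAM17, a protease that can shed MUC1, was at 0.15 (0.06 to 0.25), and the receptor EGFR at -0.10 (-0.19 to -0.006). CTNNB1, which encodes beta-catenin, was at -0.13 (-0.20 to -0.05). Here the shares as large were 5.83% for LGALS3, 39.9% for ADAM17, 58.3% for EGFR and 46.1% for CTNNB1.

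**Figure D5:**
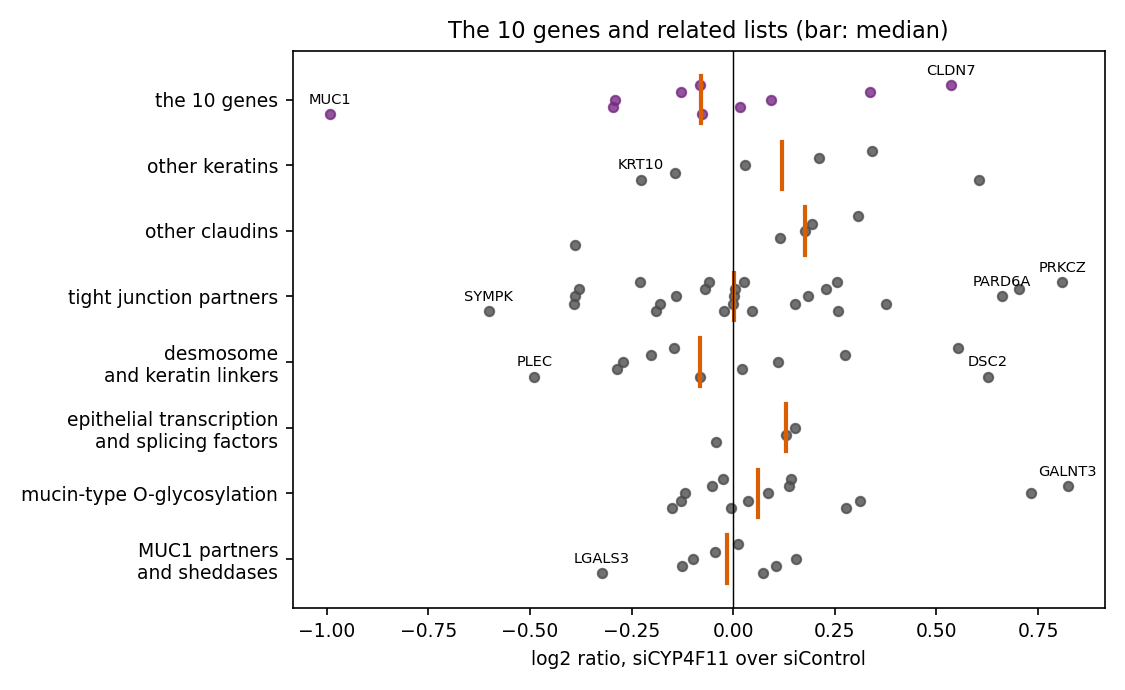
The log2 ratio of siCYP4F11 over siControl for the 10 genes and for measured genes of 7 related lists (points), with the median of each as an orange bar. Medians lie between -0.08 and 0.18, and MUC1 at -0.99 is the point furthest from 0.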

How the data were processed

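RNA was measured in 2 libraries of NCI-H460 cells. The libraries were poly-A selected and kept strand by dUTP marking, per the labels' protocols. The authors deposited 1 table of whole-number read counts per gene, not normalised, with the length of each gene model. Named in the submitters' processing notes are GRCh38, featureCounts 2.0.6, HISAT2 2.2.1, fastp and edgeR 4.0.16. Their roles and the strand setting of the counting are not given in the sources used here. The 58735 gene IDs, positions and symbols were those of GENCODE 29. The further sample columns numbered 0.

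Counts were scaled by TMM (edgeR 4.0.16, R 4.3.3). The libraries held 13002179 (siCYP4F11) and 16207785 (siControl) counts, and the TMM factors were 1.004 (siCYP4F11) and 0.996 (siControl). The log2 ratio used 0.5 added to each count, and its 95% interval came from an exact (Clopper-Pearson) interval on the part of a gene's counts that fell in siCYP4F11. Intervals of pairs used the normal approximation to log counts. A gene at a similar level had a mean CPM within 1.5 times. GC content was that of the longest transcript, smoothed by lowess with a span of 0.3. The reads carry no molecular identifiers and are not independent molecules, and all intervals and floors cover counting error only. No p-value was computed, because there was 1 library per group.

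The genes and lists were chosen with earlier results of these data known. Of related lists, the genes named are up to 4 with the largest log2 ratios among those whose interval excluded 0, and any others are marked. Scalings, pseudocounts, filters, thresholds, GC correction and pseudogene counts were varied. The method was tested on simulated Poisson counts with planted differences. Such counts hold counting error and no spread between replicate libraries, so the test checks the calculation only. DESeq2 1.42.0 gave an alternative scaling of the counts. The other software was Python 3.11.15, scipy 1.17.1, statsmodels 0.14.6, pandas 2.3.3, numpy 2.4.6 and matplotlib 3.10.9.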

Additional observations from a re-analysis of the deposited data

How the results depend on the processing

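No paired analysis was possible because each group had 1 library, and for the same reason no replicate could be left out. The CYP4F11 ratio stayed inside its counting interval under every scaling, pseudocount and GC setting tried. Of 60 values of the 10 genes under other settings, 57 stayed inside their interval. The others came from the GC correction, which gave KRT8 -0.21, KRT19 -0.17 and KRT18 0.00069. By construction it takes off the trend with GC content. It changed the sign of KRT18, KRT7 and OCLN. The median of the 10 genes ran from -0.08 to -0.04 and their mean was -0.09. With the GC correction the intervals of CLDN1 and KRT18 took in 0. With the 1.5-fold threshold, 1 of the 10 genes was lower, and 284 measured genes were higher and 479 lower. With no filter 345 were higher and 476 lower, with a mean CPM of at least 5 they were 5 and 19, and among protein-coding genes alone 50 and 103, since more or fewer genes entered. The mean in place of the median, and principal transcript lengths, were added after the data were seen. Depth limits CLDN7 and MUC1 most, with 20 and 31 counts in siCYP4F11.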
